A study of Mus musculus with 8 samples.

Results

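The genes described here encode the proteins of the mitochondrial ribosome. They were chosen by symbol, as every gene of the count table whose name begins with Mrpl or Mrps followed by a digit and that is not a pseudogene, with a mean of at least 5 CPM (read counts scaled to a common library size) over the 8 libraries. All 77 such genes passed, 48 named for the large subunit and 29 for the small one, out of 24421 genes in the table and 12744 with enough counts to be tested. No gene lay just under the threshold, since the lowest of the 77, Mrps6, Mrpl53 and Mrpl55, averaged 10.9, 15.8 and 19.3 CPM, and the highest, Mrpl12, averaged 108.9 CPM.

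The libraries were made from HSPCs, the haematopoietic stem and progenitor cells that give rise to blood, obtained from primary transplanted mice. There were 4 groups of 2 libraries. In 3 of them the cells were double knockouts (dKO), which the series title describes as lacking beta-catenin (Ctnnb1) and Hoxa9, and carried a vector with wild-type PRMT1 (dKO_PRMT1), a vector with an enzymatically dead PRMT1 mutant (dKO_MUT) or an empty vector (dKO_EV). The last group, WT_EV, held wild-type cells transduced with empty vector. PRMT1 is the main enzyme of asymmetric arginine dimethylation. Groups were taken from the sample titles, because other labels describe all 8 libraries as dKO. For dKO_MUT replicate 2 the genotype label reads PRMT2 where PRMT1 would match its title. Nothing in the labels says that replicates are separate animals or cultures, so p-values measure the spread of these libraries alone, and it may be technical.

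The smallest library had 15531344 counts and the largest 22329749, both of them in dKO_EV. Counts at Prmt1 came to 976 to 981 CPM in dKO_PRMT1 and 1744 to 1758 CPM in dKO_MUT, against 190 to 194 CPM in dKO_EV and 188 to 192 CPM in WT_EV. Hoxa9 had 1.87 to 5.79 CPM over the 6 dKO libraries, against 17.2 to 18.2 CPM in WT_EV. Ctnnb1 had 371 to 372 CPM in dKO_PRMT1, 360 to 368 CPM in dKO_MUT and 379 to 391 CPM in dKO_EV, against 444 to 455 CPM in WT_EV, so most of its counts were still present in the dKO libraries. The deleted part of the gene is not given in the sources used here, and its total count does not test the label. Xist had 0 counts in every dKO library and 121 to 159 CPM in WT_EV, while the Y-linked gene Ddx3y had 58.2 to 68.5 CPM in the dKO libraries and 0 counts in WT_EV, so knockout and sex of the source cannot be told apart. The 8 stem and progenitor markers, Kit and Cd34 among them, were all detected, with a summed level of 714 to 739 CPM in dKO_PRMT1, 822 to 843 CPM in dKO_MUT, 922 to 951 CPM in dKO_EV and 1053 to 1071 CPM in WT_EV. The 6 mast cell and basophil markers summed to 472 to 475 CPM in dKO_PRMT1, 861 to 876 CPM in dKO_MUT, 761 to 764 CPM in dKO_EV and 1350 to 1391 CPM in WT_EV. The 9 monocyte and macrophage markers summed to 8436 to 8570 CPM in dKO_PRMT1, 8668 to 9228 CPM in dKO_MUT, 9572 to 10214 CPM in dKO_EV and 10472 to 10700 CPM in WT_EV. Genes of this list did not all move with the sum. F13a1 had 522 and 536 CPM in dKO_PRMT1 and 608 and 583 CPM in dKO_MUT. It had 349 and 341 CPM in dKO_EV and 383 and 398 CPM in WT_EV. Lpl had 295 and 295 CPM in dKO_PRMT1, against 1212 and 1271 CPM in WT_EV. The summed level of the 12 neutrophil and granule markers was 32044 to 32418 CPM in dKO_PRMT1, 32065 to 32749 CPM in dKO_MUT, 24649 to 25758 CPM in dKO_EV and 17795 to 17808 CPM in WT_EV. In the stem, mast cell and granule lists, too, some genes went against the sum. Cd34 had 148 and 144 CPM in dKO_MUT, against 128 and 122 CPM in dKO_EV. Fcer1a had 63.6 and 66.5 CPM in dKO_MUT, against 51.9 and 55.7 CPM in WT_EV. Ctsg had 971 and 1056 CPM in dKO_EV, against 1133 and 1147 CPM in WT_EV. Erythroid markers summed to 14.2 to 51.6 CPM over the 8 libraries, with Hba-a1, Hbb-bs and Hbb-bt at 0 in all groups. The part of these shifts in the results on the mitochondrial ribosome was not tested. In bulk RNA, fewer cells of a type and less RNA per cell cannot be told apart.

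Mitochondria keep a ribosome of their own, which translates the few messenger RNAs encoded by mitochondrial DNA, all of them for subunits of the respiratory chain and ATP synthase. Its ribosomal RNAs are mitochondrial, but every one of its proteins is encoded in the nucleus, made in the cytosol and imported. Some of the proteins have bacterial homologues and others are found only in mitochondrial ribosomes. Blood stem cells are known for low reliance on respiration at rest, and their progeny draw on it more as they divide and differentiate.

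Symbols do not always match structure. The protein of Mrps30 and that of Mrps18a sit in the large subunit in structures of the mammalian ribosome, and that of Mrps36 is a component of the 2-oxoglutarate dehydrogenase complex. Placed by structure, 50 members belong to the large subunit and 26 to the small one. By ancestry, 46 have a bacterial homologue and 30 are specific to mitochondria.

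The 77 genes were scattered over 17 chromosomes. A divergent neighbour, meaning a gene on the other strand whose start lies within 1000 bases and points away, was annotated for 27 of the 77 (35.1%), against 1813 of 12735 tested genes with a single position (14.2%). In 1 case both partners were members: Mrpl46 and Mrps11 start 42 bases apart on opposite strands.

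Promoter sequences were available from RefSeq (GRCm38.p6) for 68 of the 77. Each window spans 250 bases before to 50 bases after the annotated start. They were searched on both strands for letters bound by factors known for nuclear genes of mitochondrial proteins: CCGGAAG for ETS factors such as GABPA, GCATGCG for NRF1, GATGGCG for YY1, and the CCAAT box. None of the 4 is contained in another. The ETS letters were in 24 of 68 member promoters (35.3%), against 18.4% of the 9729 promoters of tested genes and 8.86% of all 32851 windows. The NRF1 letters were in 8 (11.8%), against 6.7% and 3.58%, and the YY1 letters also in 8 (11.8%), against 6.67% and 3.49%. The CCAAT box was in 27 (39.7%), against 38.8% and 37.4%. At least 1 of the first 3 was in 34 of the 68, against 28.4% and 14.5%. Each member was given the window nearest its gene start, and each of the 9729 tested genes the first window listed. The shares thus rest on unlike choices of window, and the part of this was not tested. A match of letters is a description and not a measured binding site.

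Of the members that passed the test across the 4 groups together, given below, Mrpl33 and Mrpl42 are among the 68 with a promoter sequence. Their last 100 bases before the start and first 10 from it are shown with those of Mrpl43, a member with a pair of ETS matches. The whole stretch between the starts of Mrpl46 and Mrps11 is shown as well. Promoters of members that passed only a pairwise test are not shown. Capitals mark ETS letters and, in Mrpl33, also the NRF1 letters read on the other strand (CGCATGC). All are written 5′ to 3′ on the strand of the gene named, and the last on the plus strand. They lie at chr5:31613851-31613960 (plus strand), chr10:95501940-95502049 (minus strand), chr19:45006433-45006542 (minus strand) and chr7:78783090-78783130 of GRCm38.p6.
Mrpl33: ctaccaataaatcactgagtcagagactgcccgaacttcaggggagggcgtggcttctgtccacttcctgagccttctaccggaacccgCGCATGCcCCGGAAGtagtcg
Mrpl42: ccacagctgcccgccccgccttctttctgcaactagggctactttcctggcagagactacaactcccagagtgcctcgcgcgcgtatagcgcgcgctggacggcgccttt
Mrpl43: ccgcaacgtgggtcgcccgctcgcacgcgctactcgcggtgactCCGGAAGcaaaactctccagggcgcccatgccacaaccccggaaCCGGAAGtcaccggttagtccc
Between Mrpl46 and Mrps11: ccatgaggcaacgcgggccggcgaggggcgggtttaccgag
In Mrpl33 the NRF1 letters begin 11 bases before the start and the ETS letters 3 bases before it. A CCAAT box in the Mrpl33 stretch is left in lower case. The stretches of Mrpl42 and of the Mrpl46 and Mrps11 interval held none of the ETS, NRF1 or YY1 letters. Their full windows did hold YY1 letters outside the stretches shown, at 29 from the start in Mrpl42 and at -108 in Mrps11. Both promoters are among those counted above for YY1.

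Levels of different genes were compared as CPM per kilobase (kb) of exon length. The 77 members spanned 6.01 to 195.7 CPM per kb with a median of 35.2. The large subunit members had a median of 37.5 and the small subunit members one of 34.2 CPM per kb. Members with a bacterial homologue had a median of 39.9 CPM per kb and mitochondria-specific ones 30.4 CPM per kb. Within each class the spread was far wider than these gaps, and no test was made.

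The highest per length was Mrpl33, a homologue of bacterial L33, at 195.7 CPM per kb. After it came Mrpl30 (118.3 CPM per kb), Mrpl12 (114.8), Mrpl18 (112.2) and Mrpl20 (103.5), all of the large subunit. Mrpl12 forms part of the stalk that recruits translation factors. Mrps21 was the highest small subunit member, at 100.5 CPM per kb. The lowest were Mrps25 (6.01 CPM per kb), Mrpl1 (7.37), Mrpl17 (7.93), Mrpl35 (9.35) and Mrpl41 (12.6). The exon lengths listed for those 5 genes ran from 2423 to 6712 bases, all above the members' median of 1053 bases, and the part of listed length in their low values was not tested.

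**Figure D1:**
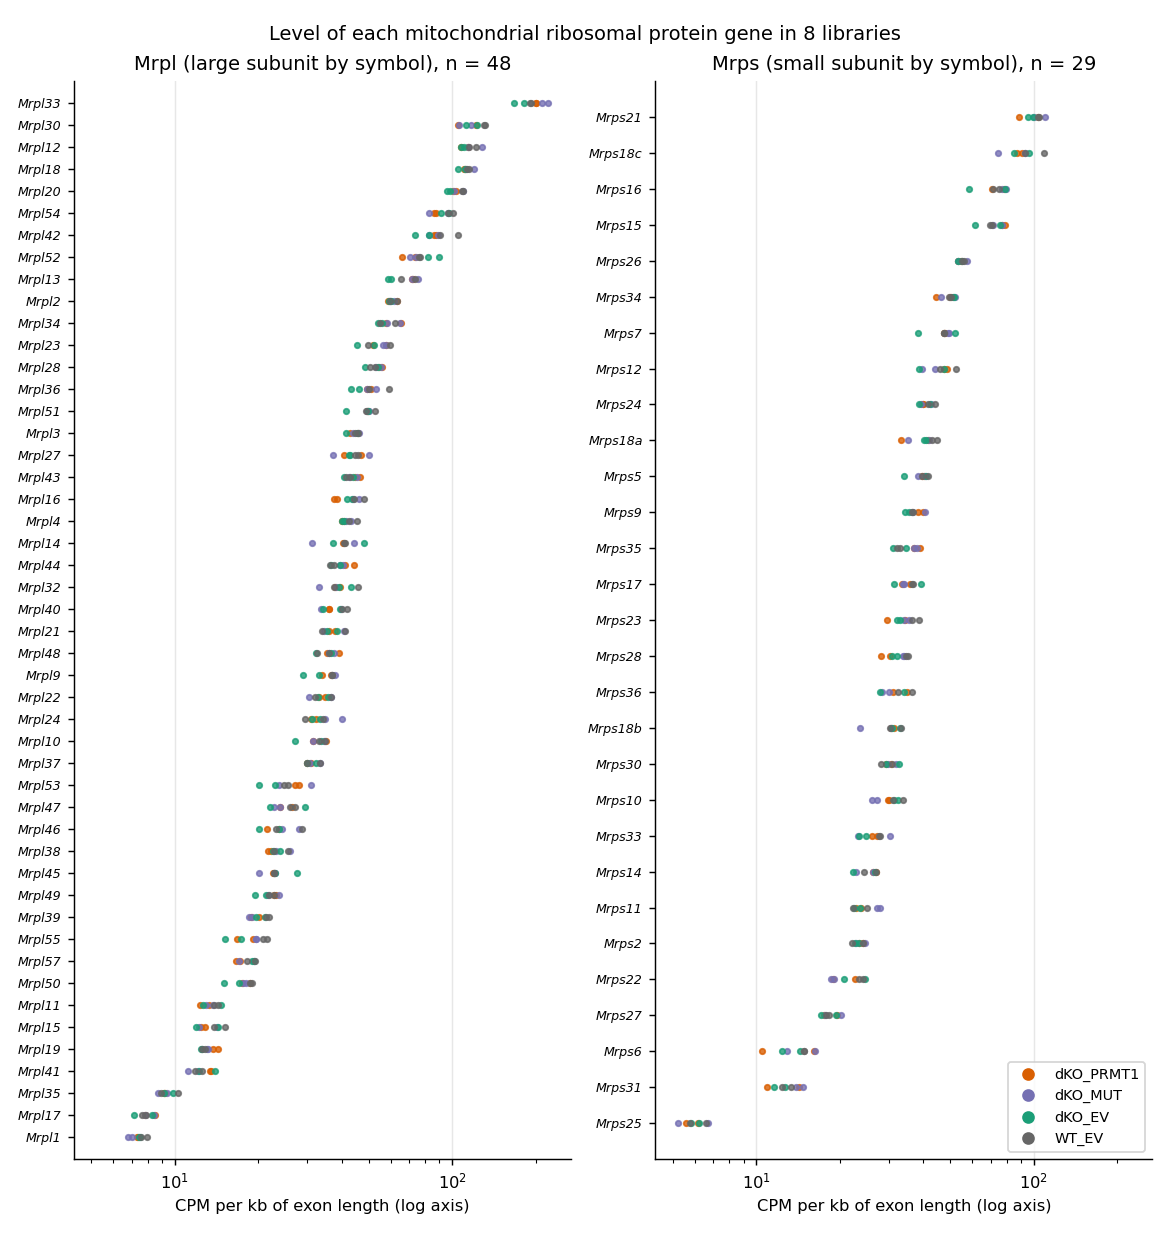
Level of each of the 77 members in the 8 libraries, as CPM per kb of exon length on a log axis, with 1 point per library coloured by group; the 48 Mrpl genes are on the left and the 29 Mrps genes on the right, ordered by their mean. The levels span 6.01 to 195.7 CPM per kb as means, and the libraries of a gene lie close together compared with the distance between genes.

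Across the groups each gene moved little. The highest group mean of a member was a median of 1.13 times its lowest. The least variable was Mrpl22 (1.02 times) and the most variable Mrpl55 (1.30 times). The group with the lowest mean was dKO_EV for 35 of the 77, and the group with the highest was WT_EV for 38. No such count was made over all genes, so these numbers describe the members alone and show nothing particular to them.

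The summed level of all members came to 3442 and 3420 CPM in dKO_PRMT1, 3435 and 3508 CPM in dKO_MUT, 3277 and 3398 CPM in dKO_EV, and 3527 and 3543 CPM in WT_EV. Both WT_EV libraries lay above all 6 dKO libraries, and both dKO_EV libraries lay below all others. As a share of all counts the members took 0.344 ± 0.0029% in dKO_PRMT1, 0.347 ± 0.0035% in dKO_MUT, 0.336 ± 0.0058% in dKO_EV and 0.351 ± 0.0017% in WT_EV (SD, n = 2 each). The summed level of 6 proliferation markers was 2052 to 2131 CPM in dKO_PRMT1, 1957 to 1998 CPM in dKO_MUT, 1780 to 1840 CPM in dKO_EV and 1919 to 1965 CPM in WT_EV, likewise lowest in dKO_EV, and its part in the members' sums was not tested.

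The large and small subunits kept nearly the same proportion in every library. The summed CPM of the large subunit members over that of the small subunit members was 1.97 and 2.01 in dKO_PRMT1, 2.03 and 2.01 in dKO_MUT, 1.97 and 1.98 in dKO_EV, and 2.00 and 2.00 in WT_EV. The dKO_MUT libraries were the highest pair, and the dKO_PRMT1 libraries overlapped those of dKO_EV and of WT_EV. On the log2 scale the mean differences of the ratio were -0.0208 for dKO_EV against WT_EV, 0.0115 for dKO_PRMT1 against dKO_EV and 0.0338 for dKO_MUT against dKO_EV. They were -0.0223 for dKO_PRMT1 against dKO_MUT, -0.00923 for dKO_PRMT1 against WT_EV and 0.0130 for dKO_MUT against WT_EV. The spread between replicates, pooled over the groups, was 0.00944 (SD on the log2 scale). With members placed by structure the ratio was 2.25 and 2.28 in dKO_PRMT1, 2.29 and 2.30 in dKO_MUT, 2.25 and 2.27 in dKO_EV, and 2.29 and 2.28 in WT_EV, and the difference of dKO_PRMT1 against dKO_EV was then -0.000140. That difference was also -0.000703 without dKO_PRMT1 replicate 2 and 0.0237 without dKO_PRMT1 replicate 1, and the difference of dKO_PRMT1 against WT_EV ran from -0.0215 to 0.00299 when those 2 libraries were left out in turn. The ratio was described without a test.

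**Figure D2:**
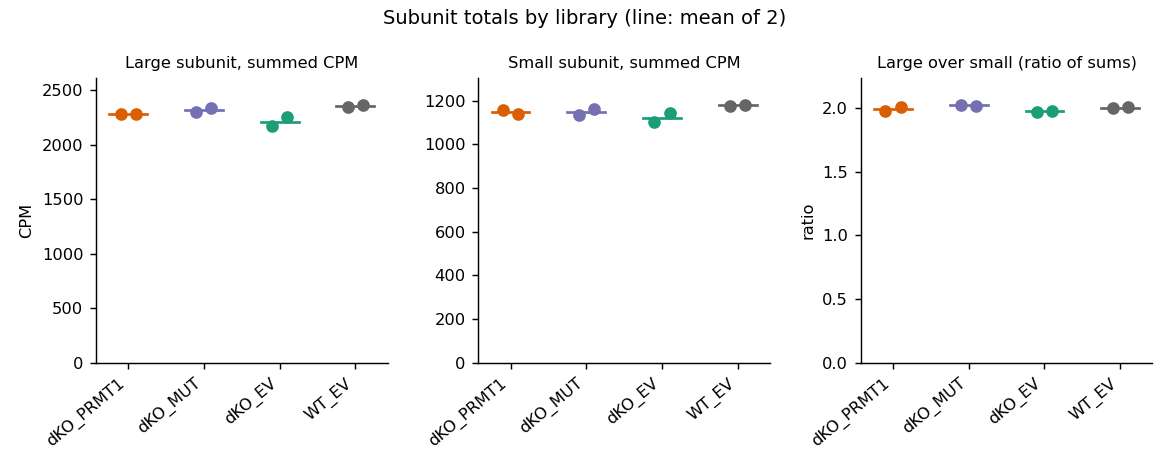
Summed CPM of the 48 large subunit members, summed CPM of the 29 small subunit members, and the ratio of the sums, each from 0 on the vertical axis; points are libraries and lines the mean of 2. The ratio lies between 1.97 and 2.03 in all 8 libraries.

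Differences of single members were tested with edgeR's quasi-likelihood test, fitted to all 12744 genes and 8 libraries, with Benjamini-Hochberg adjustment over all genes. A gene past an adjusted p of 0.05 is called, and effects are log2 fold changes ± standard error. Across the 4 groups together 3 of the 77 members (3.9%) were called, against 28.5% of all genes tested and 27.4% of the 6608 genes in the members' range of mean CPM. They were Mrpl33 (adjusted p = 0.00389), Mrpl13 (adjusted p = 0.0207) and Mrpl42 (adjusted p = 0.0291), all of the large subunit. At an unadjusted p under 0.05 there were 9 members. The median standard error of a member was 0.10, and the 95% interval of the difference lay within 1.5-fold in either direction for 76 or 77 of the 77 in each of the 6 pairwise comparisons. For genes in the same range of mean CPM it did so for 5430 to 6146 of 6608.

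**Figure D3:**
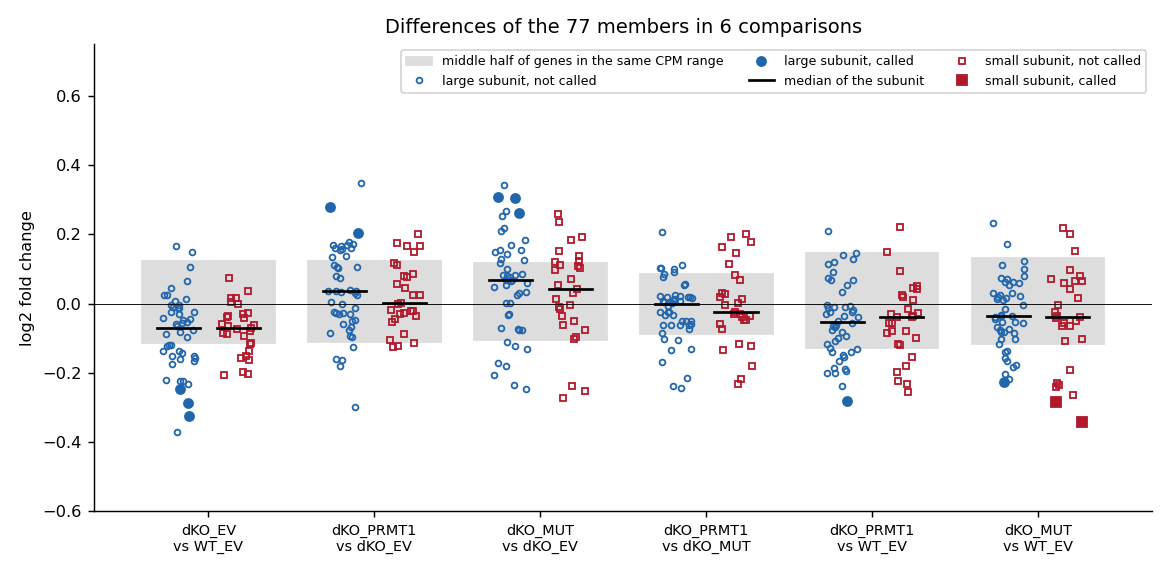
Log2 fold changes of the 77 members in the 6 pairwise comparisons; circles are large subunit and squares small subunit members, filled where called, with black lines at the median of each subunit and grey boxes for the interquartile range of the 6608 genes in the same range of mean CPM. All values lie between -0.37 and 0.35, and at most 3 members are called in any comparison.

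The comparison of dKO_EV with WT_EV sets cells labelled as double knockouts against wild-type cells under the same empty vector. Here 3 of 77 members (3.9%) were called, all lower in dKO_EV, against 15.4% of all genes tested (8.44% higher and 7% lower). The members' median was -0.07, against -0.00 over all genes, and 63 of 77 had a negative value. Over the 77 members the fold changes of this comparison had a rank correlation of 0.265 with listed exon length. Over the 6608 genes in the same range of CPM it was 0.0991. Shorter members thus tended to have the lower values in this comparison. These points share the same 4 libraries, and the part of gene length or RNA quality was not tested. The members' correlation was 0.128 in dKO_PRMT1 against WT_EV and 0.0259 in dKO_MUT against WT_EV, where the 6608 genes gave 0.117 and 0.0884. It was -0.0671 in dKO_PRMT1 against dKO_EV, -0.139 in dKO_MUT against dKO_EV and 0.119 in dKO_PRMT1 against dKO_MUT. There the 6608 genes gave 0.0338, -0.00527 and 0.0535. All 3 called members were among the 48 large subunit members, whose median was -0.07. The median of the 29 small subunit members was also -0.07, with 1 at an unadjusted p under 0.05.

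Mrpl42, a mitochondria-specific protein of the large subunit (chr10:95480806-95501927), had 54.9 and 49.0 CPM in dKO_EV, against 60.2 and 69.7 CPM in WT_EV. The groups did not overlap, and the difference was -0.33 ± 0.09 (adjusted p = 0.00747). It had 58.2 and 57.5 CPM in dKO_PRMT1 and 59.1 and 55.1 CPM in dKO_MUT, between both empty vector groups. Mrpl36, a homologue of bacterial L36 (chr13:73331009-73332178), had 39.1 and 41.8 CPM in dKO_EV, against 45.4 and 53.6 CPM in WT_EV (-0.29 ± 0.10, adjusted p = 0.0355). Mrpl9, a homologue of bacterial L9 (chr3:94443336-94448708), had 46.6 and 53.2 CPM in dKO_EV, against 59.4 and 59.3 CPM in WT_EV (-0.25 ± 0.09, adjusted p = 0.0446). Each of the 3 had its lower library of WT_EV above its higher library of dKO_EV. They were picked by their calls in this same comparison, so the lack of overlap adds no support.

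Each of these calls was lost when some single libraries were left out. That of Mrpl42 was lost without WT_EV replicate 2 (adjusted p = 0.262) and without dKO_EV replicate 2 (0.0937). That of Mrpl36 was lost under DESeq2 (0.0638) and when WT_EV replicate 2 (0.513), or dKO_EV replicate 1 (0.125), or dKO_PRMT1 replicate 2 (0.0513) was left out. That of Mrpl9 was lost under DESeq2 (0.0733) and without WT_EV replicate 1 (0.19), WT_EV replicate 2 (0.184), dKO_EV replicate 1 (0.258) or either dKO_PRMT1 library (0.0543 and 0.0613). Mrpl55 had the most negative value, at -0.37 ± 0.14, and was not called (adjusted p = 0.0683): it had 15.7 and 17.9 CPM in dKO_EV, against 22.2 and 21.3 CPM in WT_EV.

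Setting dKO_PRMT1 against dKO_EV shows dKO cells with and without added wild-type PRMT1. It gave 2 called members of 77 (2.6%), both higher in dKO_PRMT1, against 14.6% of all genes tested (5.96% higher and 8.67% lower). The median was 0.03, against 0.00 over all genes. Both called members were among the 48 of the large subunit, which had a median of 0.04. The 29 small subunit members had a median of 0.00, with 2 at an unadjusted p under 0.05.

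The PRMT1 mutant was set against the same dKO_EV libraries, so the results of both vectors share their controls. In dKO_MUT against dKO_EV 3 of 77 members (3.9%) were called, all higher in dKO_MUT, against 11.3% of all genes tested (4.24% higher and 7.08% lower). The median of the members was 0.07, against 0.00 over all genes, with 0.07 for the large and 0.04 for the small subunit. All 3 were of the large subunit, and 3 of the 29 small subunit members had an unadjusted p under 0.05.

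Mrpl33 (chr5:31613951-31622644), whose promoter stretch with ETS and NRF1 letters is given above, had 93.3 and 93.9 CPM in dKO_PRMT1, 103 and 97.9 CPM in dKO_MUT, 77.8 and 84.6 CPM in dKO_EV, and 89.5 and 89.2 CPM in WT_EV. Both dKO_EV libraries lay below the other 6. It was higher by 0.31 ± 0.07 in dKO_MUT against dKO_EV (adjusted p = 0.00137) and by 0.20 ± 0.07 in dKO_PRMT1 against dKO_EV (adjusted p = 0.0385). The first of these calls held under every alternative tried, and so did its call across the 4 groups. The second was lost under DESeq2 (0.0515), without dKO_EV replicate 1 (0.2), without either dKO_PRMT1 library (0.15 and 0.188) and without either WT_EV library (0.0534 and 0.0538). Against WT_EV, the values were 0.17 ± 0.07 in dKO_MUT (adjusted p = 0.0687) and 0.07 ± 0.07 in dKO_PRMT1 (adjusted p = 0.546), neither called.

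Mrpl13, a homologue of bacterial L13 (chr15:55534095-55557312), had 56.3 and 57.0 CPM in dKO_PRMT1, 56.2 and 59.1 CPM in dKO_MUT, 47.2 and 46.2 CPM in dKO_EV, and 51.6 and 57.6 CPM in WT_EV. Again both dKO_EV libraries were the lowest of the 8. Mrpl33 and Mrpl13 were picked by their calls in these libraries, so this order adds no support. The difference was 0.28 ± 0.09 in dKO_PRMT1 against dKO_EV (adjusted p = 0.0223) and 0.30 ± 0.09 in dKO_MUT against dKO_EV (adjusted p = 0.0142). The first was lost without dKO_EV replicate 2 (0.0768), dKO_PRMT1 replicate 1 (0.101) or dKO_PRMT1 replicate 2 (0.14), and the second without dKO_EV replicate 2 (0.0524) or dKO_MUT replicate 2 (0.114). Its call across the 4 groups was lost only without dKO_EV replicate 2 (0.098), among the alternatives tried, and that of Mrpl42 under DESeq2 (0.0574) and when WT_EV replicate 2 (0.374), or dKO_EV replicate 2 (0.109), or dKO_PRMT1 replicate 2 (0.0504) was left out.

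Mrpl9 had 60.5 and 59.4 CPM in dKO_MUT, against 46.6 and 53.2 CPM in dKO_EV, a difference of 0.26 ± 0.09 (adjusted p = 0.0397). With 58.6 and 54.5 CPM in dKO_PRMT1 it was 0.18 ± 0.09 above dKO_EV there and not called (adjusted p = 0.18). The call in dKO_MUT was lost under DESeq2 (0.0609) and without dKO_EV replicate 1 (0.228), either dKO_MUT library (0.154 and 0.102) or dKO_PRMT1 replicate 2 (0.0515). Mrpl53 had the largest values of both comparisons, 0.35 ± 0.16 in dKO_PRMT1 and 0.34 ± 0.16 in dKO_MUT, and was called in neither (adjusted p = 0.153 and 0.18). It shares exon bases with Ccdc142 on the same strand, so reads of the 2 genes may not be separated.

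**Figure D4:**
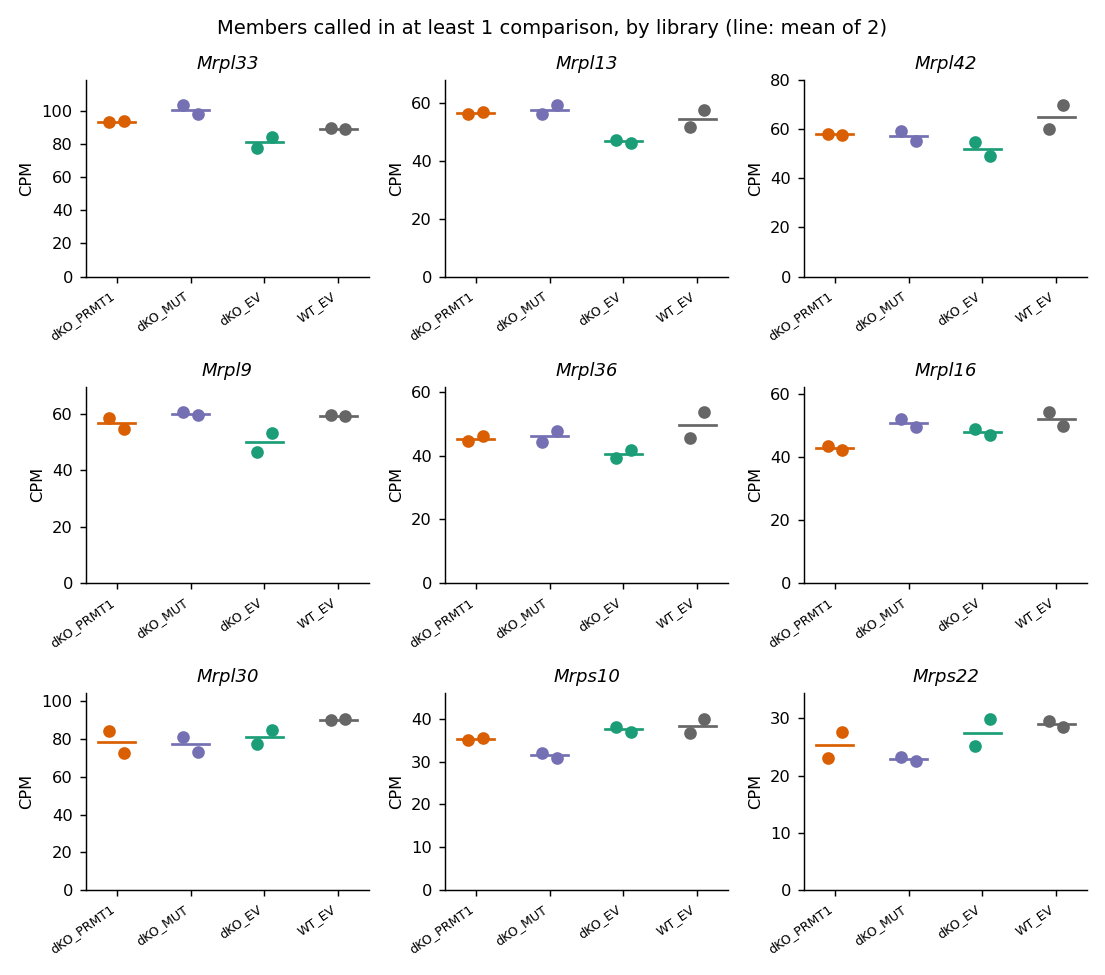
CPM by library of the 9 members called in at least 1 pairwise comparison, with points for libraries, lines for the mean of 2 and the vertical axis from 0. For Mrpl33 and Mrpl13 both dKO_EV libraries lie below the other 6 libraries, and for Mrps10 both dKO_MUT libraries lie below the other 6. The genes shown were picked by calls in the same libraries, so these orders add no support.

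The direct comparison of dKO_PRMT1 with dKO_MUT sets the wild-type insert against the mutant one. Counts at Prmt1 were 976 to 981 CPM in dKO_PRMT1, against 1744 to 1758 CPM in dKO_MUT, so the form of the insert and its transcript level cannot be told apart. Here 0 of 77 members were called by edgeR, against 3.11% of all genes tested (1.43% higher and 1.68% lower), with 2 at an unadjusted p under 0.05 and 0 called by DESeq2. The median was -0.01, against -0.00 over all genes. The 2 were Mrpl16 (-0.24 ± 0.09) and Mrpl24 (-0.24 ± 0.11). The 95% interval of the difference lay within 1.5-fold for all 77, and the widest bounds were -0.52 and 0.45 on the log2 scale.

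In dKO_PRMT1 against WT_EV 1 of 77 members (1.3%) was called, lower in dKO_PRMT1, against 23.2% of all genes tested (11% higher and 12.2% lower), and the median was -0.05, against 0.00 over all genes. It was Mrpl16 (chr19:11770415-11774946), a homologue of bacterial L16. It had 43.4 and 42.3 CPM in dKO_PRMT1, against 54.2 and 49.9 CPM in WT_EV (-0.28 ± 0.09, adjusted p = 0.0167). In dKO_MUT it had 52.0 and 49.5 CPM, and in dKO_EV 48.9 and 47.1 CPM, so the dKO_PRMT1 libraries were the lowest pair. Mrpl16 was picked by its call in these libraries, so this order adds no support. The call was lost without WT_EV replicate 1 (0.24), dKO_PRMT1 replicate 1 (0.0711) or dKO_PRMT1 replicate 2 (0.127).

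In dKO_MUT against WT_EV 3 of 77 members (3.9%) were called, all lower in dKO_MUT, against 19.4% of all genes tested (9.41% higher and 9.96% lower), and the median was -0.04, against -0.00 over all genes. Among them were the only small subunit members called in any pairwise comparison, Mrps10 and Mrps22. Mrps10, a homologue of bacterial S10 (chr17:47368887-47378679), had 32.0 and 30.9 CPM in dKO_MUT, against 36.7 and 39.96 CPM in WT_EV (-0.28 ± 0.10, adjusted p = 0.044). It had 35.1 and 35.4 CPM in dKO_PRMT1 and 38.2 and 36.9 CPM in dKO_EV. The dKO_MUT libraries were thus the lowest pair of the 8. Mrps10 was picked by its call in these libraries, so this order adds no support. Mrps22, a mitochondria-specific protein (chr9:98588730-98601679), had 23.2 and 22.6 CPM in dKO_MUT, against 29.6 and 28.4 CPM in WT_EV (-0.34 ± 0.12, adjusted p = 0.049). Mrpl30, a homologue of bacterial L30 (chr1:37890553-37898333), had 81.0 and 73.3 CPM in dKO_MUT, against 89.9 and 90.6 CPM in WT_EV (-0.23 ± 0.08, adjusted p = 0.0335). None of the 3 was called by DESeq2 (adjusted p = 0.0688, 0.0878 and 0.074). Each was lost without either WT_EV library and without dKO_MUT replicate 2. Mrps10 and Mrps22 were lost also without dKO_MUT replicate 1 and without either dKO_PRMT1 library (adjusted p = 0.0533 to 0.377 over all these fits).

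For the 3 members whose place or role departs from the symbol, the highest group mean was 1.05 (Mrps30), 1.17 (Mrps18a) and 1.18 (Mrps36) times the lowest, against the median of 1.13 over all members. Mrps30 averaged 47.5 CPM in dKO_PRMT1, 49.1 CPM in dKO_MUT, 49.2 CPM in dKO_EV and 46.8 CPM in WT_EV. Mrps18a averaged 32.4, 33.3 and 35.1 CPM in the same order of dKO groups and 38.0 CPM in WT_EV, and Mrps36 averaged 23.6, 20.9 and 22.2 CPM and 24.6 CPM in WT_EV. None was called in any comparison.

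The head-to-head pair also showed no call. Mrps11 (homologue of bacterial S11) had 28.3 and 29.1 CPM in dKO_MUT, against 24.7 and 23.4 CPM in dKO_EV (0.26 ± 0.12, adjusted p = 0.184). Mrpl46 (mitochondria-specific) had 28.9 and 25.1 CPM in dKO_MUT, against 20.8 and 24.4 CPM in dKO_EV (0.25 ± 0.13, adjusted p = 0.242). In dKO_EV against WT_EV the values were -0.04 for Mrps11 and -0.23 for Mrpl46, and in dKO_MUT against WT_EV they were 0.22 and 0.02. Whether the pair moved together was not tested. Of the 25 divergent neighbours outside the family, 3 were called in dKO_EV against WT_EV, namely 2610507I01Rik (0.32), Pnpla7 (0.42) and Tcp1 (-0.20). That is against 15.4% of all genes tested. In dKO_PRMT1 against dKO_EV 2 were called, 2610507I01Rik (0.43) and Ncapd2 (0.17), against 14.6% of all genes. The first 3 neighbours were called in dKO_PRMT1 against WT_EV and in dKO_MUT against WT_EV as well, where 23.2% and 19.4% of all genes were. The members beside those 3 had values of -0.37 (Mrpl55), 0.10 (Mrpl41) and -0.08 (Mrpl18) in dKO_EV against WT_EV, none called.

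Exon bases were shared with another annotated gene for 10 members: 3 on the same strand (Mrps23, Mrps6 and Mrpl53) and 7 on the opposite strand (Mrps27, Mrpl49, Mrpl41, Mrpl24, Mrpl19, Mrps25 and Mrpl48). None of the 9 members called in a pairwise comparison was among them.

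The proteins of the cytosolic ribosome, which translates all nuclear messages, gave other counts. In dKO_EV against WT_EV 67 of the 83 tested genes were lower and 0 higher, with a median of -0.16, against 3 lower and 0 higher of 77 and a median of -0.07 for the mitochondrial ones. In dKO_MUT against dKO_EV 52 of 83 were higher and 0 lower (median 0.13), against 3 and 0 of 77 (median 0.07). In dKO_PRMT1 against dKO_EV 5 of 83 were higher and 0 lower (median 0.02), against 2 and 0 of 77 (median 0.03). The cytosolic genes are more abundant, with a median standard error of 0.04 against 0.10, so the counts of calls rest on unequal precision. The difference between the 2 families was not tested. Over the alternatives, 48 to 71 cytosolic genes were called in dKO_EV against WT_EV. The 52 in dKO_MUT against dKO_EV became 30 without dKO_EV replicate 1 and 24 without dKO_MUT replicate 2, and the 5 in dKO_PRMT1 against dKO_EV became 1 without dKO_PRMT1 replicate 2, 3 without dKO_EV replicate 1, 10 without dKO_PRMT1 replicate 1, 11 without dKO_EV replicate 2 and 8 with no count filter.

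The nuclear subunits of oxidative phosphorylation were set beside both families, with no test of a difference. Most are partners of the mitochondrially translated proteins, but those of complex II, such as Sdhb, are not. Of 79 tested, 15 were lower and 0 higher in dKO_EV against WT_EV (19% called, against 15.4% of all genes; median -0.12), among them Atp5k (-0.50 ± 0.08) and Cox7c (-0.29 ± 0.06). That count was 9 under DESeq2, 7 without WT_EV replicate 1, 5 without WT_EV replicate 2 and 9 without dKO_EV replicate 1. In dKO_PRMT1 against dKO_EV 3 were higher and 1 lower (median 0.04), and in dKO_MUT against dKO_EV 4 were higher and 0 lower (median 0.05). Without dKO_EV replicate 2 the numbers higher were 12 and 14. The first comparison had 0 called without dKO_PRMT1 replicate 2, and the second had 2 without dKO_MUT replicate 2.

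The lists that follow are short, and the share called in each is to be read against the share over all genes tested, 15.4% in dKO_EV against WT_EV, 14.6% in dKO_PRMT1 against dKO_EV and 11.3% in dKO_MUT against dKO_EV. Mitochondrial ribosome proteins that carry other symbols (Dap3, Ptcd3, Chchd1, Aurkaip1, Gadd45gip1 and Ict1) gave 1 lower of 6 (16.7%) in dKO_EV against WT_EV. It was Gadd45gip1, a large subunit protein, with 33.0 and 38.9 CPM in dKO_EV, against 48.8 and 43.4 CPM in WT_EV (-0.35 ± 0.10, adjusted p = 0.0169), and it was also lower in dKO_PRMT1 against WT_EV (-0.43 ± 0.10, adjusted p = 0.00192). Both calls were lost without WT_EV replicate 1 (0.258 and 0.0732), and the first also without dKO_EV replicate 1 (0.146).

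Assembly factors of the mitochondrial ribosome gave 1 of 27 (3.7%) lower and 0 higher in dKO_EV against WT_EV, the GTPase Gtpbp10 (-0.41 ± 0.13, adjusted p = 0.0322). None of the 27 was called in dKO_PRMT1 against dKO_EV or in dKO_MUT against dKO_EV by edgeR, with 1 and 0 at an unadjusted p under 0.05. The pseudouridine synthase family member Trub2 was higher against WT_EV in dKO_PRMT1 (0.28 ± 0.11, adjusted p = 0.0461) and in dKO_MUT (0.31 ± 0.11, adjusted p = 0.0317). The calls of both genes were lost without either WT_EV library, that of Gtpbp10 also without dKO_EV replicate 2 (0.197), and those of Trub2 also without either library of the vector concerned and, in dKO_PRMT1, under DESeq2 (0.0683), with no count filter (0.0531) and without dKO_MUT replicate 1 (0.0517).

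Among 18 mitochondrial translation factors 2 (11.1%) were lower in dKO_EV against WT_EV and 0 higher. Slirp, an RNA-binding partner of Lrpprc, had 28.8 and 27.4 CPM in dKO_EV, against 45.9 and 42.2 CPM in WT_EV (-0.65 ± 0.11, adjusted p = 2.19e-05), a larger value than that of any of the 77 members. It was lower against WT_EV also in dKO_PRMT1 (-0.53 ± 0.11, adjusted p = 0.000168) and in dKO_MUT (-0.38 ± 0.10, adjusted p = 0.00761). The last of these was lost without WT_EV replicate 1 (0.157) or dKO_MUT replicate 2 (0.0841). The elongation factor Tufm was lower by a smaller amount in dKO_EV (-0.19 ± 0.06, adjusted p = 0.0394), a call lost without either WT_EV library (0.0995 and 0.288), dKO_EV replicate 1 (0.207) or dKO_PRMT1 replicate 2 (0.0585) and under DESeq2 (0.056). Mtfmt, which formylates the initiator methionyl-tRNA, had 15.9 and 15.3 CPM in dKO_PRMT1, against 9.93 and 11.5 CPM in dKO_EV (0.54 ± 0.17, adjusted p = 0.0256), and was not called without dKO_EV replicate 1 or either dKO_PRMT1 library (0.107, 0.152 and 0.108).

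A list of 22 genes held mitochondrial aminoacyl-tRNA synthetases and the subunits of an amidotransferase that acts on charged tRNA (Qrsl1 and its partners). Of these 22, 0 were called by edgeR in dKO_EV against WT_EV, with 2 at an unadjusted p under 0.05. In the comparisons with dKO_EV 1 of 22 (4.55%) was called for each vector. Cars2 was the 1 higher in dKO_PRMT1 against dKO_EV (0.46 ± 0.13, adjusted p = 0.0131) and Aars2 the 1 higher in dKO_MUT against dKO_EV (0.45 ± 0.14, adjusted p = 0.0302). The call of Cars2 was lost without either dKO_PRMT1 library (0.0554 and 0.122) or dKO_EV replicate 2 (0.0904), and that of Aars2 without either dKO_MUT library (0.0701 and 0.163) or either dKO_EV library (0.0542 and 0.0816).

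Of 13 genes of mitochondrial DNA transcription and replication 1 was higher and 1 lower in dKO_EV against WT_EV, a share called (15.4%) equal to that over all genes. The DNA polymerase Polg was higher (0.31 ± 0.08, adjusted p = 0.00445), a call lost without WT_EV replicate 2 (0.206), and the topoisomerase Top1mt was lower (-0.76 ± 0.19, adjusted p = 0.00414). Tfb2m, a transcription factor of the mitochondrial genome, was the 1 higher in dKO_PRMT1 against dKO_EV (0.35 ± 0.12, adjusted p = 0.0435), a call lost under DESeq2 (0.058) and without any of the 6 libraries of dKO_PRMT1, dKO_EV and WT_EV.

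Among 12 tested regulators of nuclear genes for mitochondrial proteins, 2 (16.7%) were called in dKO_EV against WT_EV, 3 (25%) in dKO_PRMT1 against dKO_EV and 1 (8.33%) in dKO_MUT against dKO_EV. Mycn had 9.83 and 10.1 CPM in dKO_PRMT1, 10.9 and 12.3 CPM in dKO_MUT, 23.9 and 21.1 CPM in dKO_EV, and 11.6 and 11.7 CPM in WT_EV. It was higher in dKO_EV against WT_EV (0.95 ± 0.16) and lower against dKO_EV in dKO_PRMT1 (-1.17 ± 0.16) and in dKO_MUT (-0.96 ± 0.16). Myc was lower in dKO_EV against WT_EV (-0.21 ± 0.05, adjusted p = 0.0033). For the ETS factor whose letters were searched in the promoters, Gabpa was 0.23 ± 0.07 (adjusted p = 0.0268) and its partner Gabpb2 0.32 ± 0.07 (adjusted p = 0.000815) in dKO_PRMT1 against dKO_EV, both higher. The call of Gabpb2 was lost without dKO_PRMT1 replicate 1 (0.0793), and that of Gabpa without dKO_EV replicate 1 (0.185) or dKO_PRMT1 replicate 2 (0.486).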

How the data were processed

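RNA was sequenced from 8 libraries, 4 groups of 2. Per the labels' protocols, the RNeasy Plus Micro kit gave the RNA and the NEB Ultra II Directional kit the libraries. The submitters' processing notes name Trim Galore 0.6.6, STAR 2.7.6a and featureCounts with GRCm38 (mm10). How strand was handled in counting, and which annotation served, is not given in the sources used here, and a gene and one that overlaps it on the other strand cannot be told apart. The authors deposited raw read counts per gene with an exon length. In R 4.3.3, edgeR 4.0.16 scaled libraries by TMM, kept 12744 genes by filterByExpr and fitted its quasi-likelihood test with group alone as a term (4 residual degrees of freedom, common biological coefficient of variation 0.0637). CPM was computed on TMM-scaled library sizes. Standard errors were derived from each fold change and F statistic, and 95% intervals from the t distribution of the fit. Replicates differed by more than sampling noise, with chi-square over its degrees of freedom at 3.63 to 6.39. Steps were tested on simulated data. Alternatives were DESeq2 size factors, no count filter, DESeq2 1.42.0, a replicate block, other CPM thresholds, another subunit assignment and each library left out. Members, gene lists and tests were chosen with earlier results of these data known. The text names every called member, the 5 highest and lowest per length, the 3 nearest the CPM threshold, the members whose symbol and place differ, and up to 4 called genes per list and comparison, some left out for room; the divergent pair, the members with extreme values and the neighbours were chosen after their values were seen. Kinases and a binding protein caught by the cytosolic symbols were left out.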

Additional observations from a re-analysis of the deposited data

How the results depend on the processing

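With edgeR the count of called members was 3 for dKO_EV against WT_EV, 2 for dKO_PRMT1 against dKO_EV, 3 for dKO_MUT against dKO_EV, 0 for dKO_PRMT1 against dKO_MUT, 1 for dKO_PRMT1 against WT_EV, 3 for dKO_MUT against WT_EV and 3 across the 4 groups. DESeq2 called 1, 1 and 0 in dKO_EV against WT_EV, dKO_PRMT1 against dKO_EV and dKO_MUT against WT_EV. With no count filter 2 were called in dKO_PRMT1 against WT_EV and 5 across the 4 groups. With single libraries left out, where the lone library of a group is taken to vary like the other groups, the counts ran from 0 to 5 in dKO_EV against WT_EV (0 without WT_EV replicate 2, 1 without dKO_PRMT1 replicate 2, 5 without dKO_EV replicate 2), 0 to 6 in dKO_PRMT1 against dKO_EV (0 without either dKO_PRMT1 library, 6 without dKO_EV replicate 2), 2 to 5 in dKO_MUT against dKO_EV, 0 to 0 in dKO_PRMT1 against dKO_MUT, 0 to 4 in dKO_PRMT1 against WT_EV, 0 to 5 in dKO_MUT against WT_EV (0 without WT_EV replicate 2) and 2 to 8 across the 4 groups. The cause was not tested. Over all genes, the 1967 calls of dKO_EV against WT_EV became 1209 and 1149 without WT_EV replicate 1 and 2, and the 1864 of dKO_PRMT1 against dKO_EV became 1133 and 1058 without dKO_PRMT1 replicate 1 and 2. The 396 of dKO_PRMT1 against dKO_MUT ran from 171 without dKO_PRMT1 replicate 1 to 244 without dKO_MUT replicate 1 when libraries of those groups were left out, and the 2955 of dKO_PRMT1 against WT_EV became 1954 without dKO_PRMT1 replicate 1.

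For the log2 ratio of large to small subunit, a mean of log2 CPM gave -0.0106 for dKO_EV against WT_EV, -0.0121 for dKO_PRMT1 against dKO_MUT and 0.00458 for dKO_PRMT1 against WT_EV. Placement by structure gave -0.000140 for dKO_PRMT1 against dKO_EV and 0.0223 for dKO_MUT against dKO_EV. With single libraries left out the ratio differences ran from -0.0234 to -0.0181 (dKO_EV against WT_EV), -0.000703 to 0.0237 (dKO_PRMT1 against dKO_EV), 0.0296 to 0.0380 (dKO_MUT against dKO_EV), -0.0345 to -0.0101 (dKO_PRMT1 against dKO_MUT), -0.0215 to 0.00299 (dKO_PRMT1 against WT_EV) and 0.00880 to 0.0173 (dKO_MUT against WT_EV).

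Of 180 refits of the single called members 124 kept the call, 56 lost it and 0 changed sign. Calls across the 4 groups are among them and carry no sign. The members were picked by calls in these same libraries, and some refits left out a library outside the comparison. The number kept is thus no independent support. Same-numbered replicates did not deviate together (correlations of -0.042 to 0.020 over 9945 genes). This shows no shared deviation, but it cannot tell whether same-numbered libraries had a common source, which the labels do not state. With the replicate block the member counts were again 3, 2, 3, 0, 1, 3 and 3. Another scaling moved the median of all genes by at most 0.00283 on the log2 scale. The alternatives for the cytosolic, oxidative phosphorylation and pathway lists were added after the data were seen. With 2 libraries a group, a member that was not called may still differ by any amount within its 95% interval.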
